A study of Mus musculus with 4 samples.

Results

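The 10 genes described here mark brain endothelium and the blood-brain barrier: Cldn5, Pecam1, Slc2a1, Flt1, Kdr, Cdh5, Abcb1a, Tek, Tie1 and Ocln. Their members on the array are all probe sets (groups of short oligonucleotides summarised to 1 value) whose platform annotation names 1 of these genes and no other, 18 of 45101 probe sets. The series holds 4 Affymetrix arrays of total RNA from mouse (Mus musculus), labelled as brain, hindbrain and spinal cord. On 2 arrays (cDNA) the target was amplified with a Nugen kit and hybridised as cDNA, and on the other 2 (aRNA) it was antisense RNA from T7-based amplification. Each preparation has an array numbered 0 and an array numbered 1, and the labels used here attach no genotype, strain, age, treatment or animal to these numbers. No label ties an array to an animal, so a p-value measures only the spread between these 4 arrays, part of which may be technical; the sex-linked transcripts given below differ between the aRNA arrays.

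The endothelial cells of brain capillaries form the blood-brain barrier. They are sealed to each other by tight junctions, in which claudin-5 is the main claudin, and they exchange solutes through dedicated carriers such as the glucose transporter Glut1 and pump out lipophilic compounds through P-glycoprotein. Their growth and survival depend on 2 families of receptor tyrosine kinases, the VEGF receptors and the Tie receptors, and their identity and barrier state are maintained by ETS and SOX factors and by Wnt ligands from neural cells. In an RNA extract of whole tissue, a lower value cannot tell fewer endothelial cells from less RNA per cell.

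Start-site sequence is shown for 3 members with large differences between the preparations in the data below (Slc2a1, Tek and Tie1), so that the letters around their start sites can be read beside the values. The arrays read transcripts and not these windows. Each runs from 250 bases before to 50 bases after the RefSeq start site in GRCm38.p6, 5′ to 3′ on the gene's strand. Capitals mark matches on either strand to motifs of vascular regulators. For ETS factors the letters searched were ACAGGAA and, as a variant, ACCGGAA. For SOX factors they were AACAAT, for the erythroid and endothelial GATA family AGATAA, and for the hypoxia response core ACGTG.
Slc2a1, chr4:119108495-119108794, plus strand: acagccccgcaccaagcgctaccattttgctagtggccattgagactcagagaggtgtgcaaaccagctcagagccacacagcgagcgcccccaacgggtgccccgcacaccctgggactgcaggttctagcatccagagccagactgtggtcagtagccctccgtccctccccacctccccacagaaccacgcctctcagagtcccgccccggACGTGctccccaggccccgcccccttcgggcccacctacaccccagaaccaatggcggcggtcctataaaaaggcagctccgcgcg
Tek, chr4:94739039-94739338, plus strand: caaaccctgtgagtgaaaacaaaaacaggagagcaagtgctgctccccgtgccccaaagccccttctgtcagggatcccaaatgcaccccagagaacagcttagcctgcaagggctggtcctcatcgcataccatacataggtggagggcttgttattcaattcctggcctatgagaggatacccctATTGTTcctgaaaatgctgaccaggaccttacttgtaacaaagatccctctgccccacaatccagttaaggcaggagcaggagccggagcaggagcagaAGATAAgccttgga
Tie1, chr4:118489800-118490099, minus strand: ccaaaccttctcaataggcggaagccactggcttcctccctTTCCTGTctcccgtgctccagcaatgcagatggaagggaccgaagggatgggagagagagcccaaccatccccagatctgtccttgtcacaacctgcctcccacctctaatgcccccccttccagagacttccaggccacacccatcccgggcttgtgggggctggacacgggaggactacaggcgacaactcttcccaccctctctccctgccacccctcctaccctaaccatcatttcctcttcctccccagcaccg
The Slc2a1 window holds ACGTG starting 36 bases before the start site, a motif found in 19.6% of 32851 windows of this length in the table. The Tek window holds ATTGTT, the reverse complement of the SOX motif (10.7% of windows), and AGATAA (11.2%). The Tie1 window holds TTCCTGT, the reverse complement of the ETS motif ACAGGAA (8.67%; 3.72% hold ACCGGAA). These motifs share no bases with each other in the 3 windows. RefSeq windows were matched by symbol for 8 of the 10 genes, Pecam1 and Cdh5 having no entry; besides these 3 genes none of the 8 holds a match to the marked motifs. The GC box GGGCGG, not marked, was found in 5 of the 8 genes and in 35.7% of all windows, and TATAAA, also not marked, in 2 of the 8 and in 13.6%. A match describes letters in the window and shows no binding.

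Array background was taken from 27 control probe sets for Bacillus transcripts, whose 95th percentile in intensity was 212 (cDNA 0), 247 (cDNA 1), 123 (aRNA 0) and 126 (aRNA 1), arrays being named by preparation and number from here on. All 8 neuronal markers and all 7 measured oligodendrocyte markers lay above background on the 4 arrays, and so did 8 of 9 pericyte markers. The female transcript Xist read 11.94 (cDNA 0), 12.51 (cDNA 1) and 15.44 (aRNA 1) in log2 units at probe set 1436936_s_at, but 8.55 on aRNA 0, where the Y-linked Eif2s3y was highest (13.12 at 1417210_at). The Y-linked Kdm5d (9.93 at 1424903_at, against 6.66 on aRNA 1) and Uty (9.95 at 1426598_at, against 6.09) were also higher on aRNA 0 than on aRNA 1. The aRNA arrays thus differ in sex-linked RNA and are not repeats of 1 RNA sample. aRNA array 0 stands apart from both cDNA arrays as well, and results are given with and without it where it matters. A difference between the preparations can therefore hold a difference between RNA samples or their sex, and these cannot be told apart here. Below, differences are in log2(intensity + 16) with their limma standard error (SE), and a mean is followed by the SD of its 2 arrays.

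Between the preparations, the barrier transporter Slc2a1 and the receptors Tek and Flt1 (the last at 1 of its 4 probe sets) rose on cDNA, Abcb1a rose at 1 of 2 probe sets by less, and Cldn5 and Ocln did not pass the test. Of the 18 member probe sets, 10 passed the filter on dim values (a mean over the arrays at or above the median of all probe sets), and these lay above background on all 4 arrays. Limma called 6 of the 10 higher on cDNA and 0 lower. Of all 22519 probe sets tested, 20.2% were called higher and 22.9% lower. An unadjusted limma p under 0.05 was found at 6 of the 10, and at 11545 of all 22519. The called probe sets belong to 4 genes, and Slc2a1 gives 3 of them. At the brightest probe set per gene, 3 of 6 tested members were called higher on cDNA (median difference 1.58). Over all genes tested in this way, 21.9% were called higher. Over all 18 members, dim ones included, both cDNA arrays exceeded both aRNA arrays at 10 probe sets (31.0% of all 45037 probe sets), both aRNA arrays exceeded both cDNA arrays at 2 (30.6%), and the preparations overlapped at 6. The median difference was 1.75 over the 10 tested members and −0.11 over all tested probe sets, which became −0.25 when each array was centred on its median. Leaving out aRNA array 0 leaves 1 aRNA array, so only sizes are given. The differences were then 2.28 to 3.35 at the Slc2a1 probe sets, 2.80 for Tek and 2.45 for Flt1 at 1451756_at. Abcb1a at 1419758_at gave 1.25. The median over the 12 members then past the filter was 1.17.

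**Figure D1:**
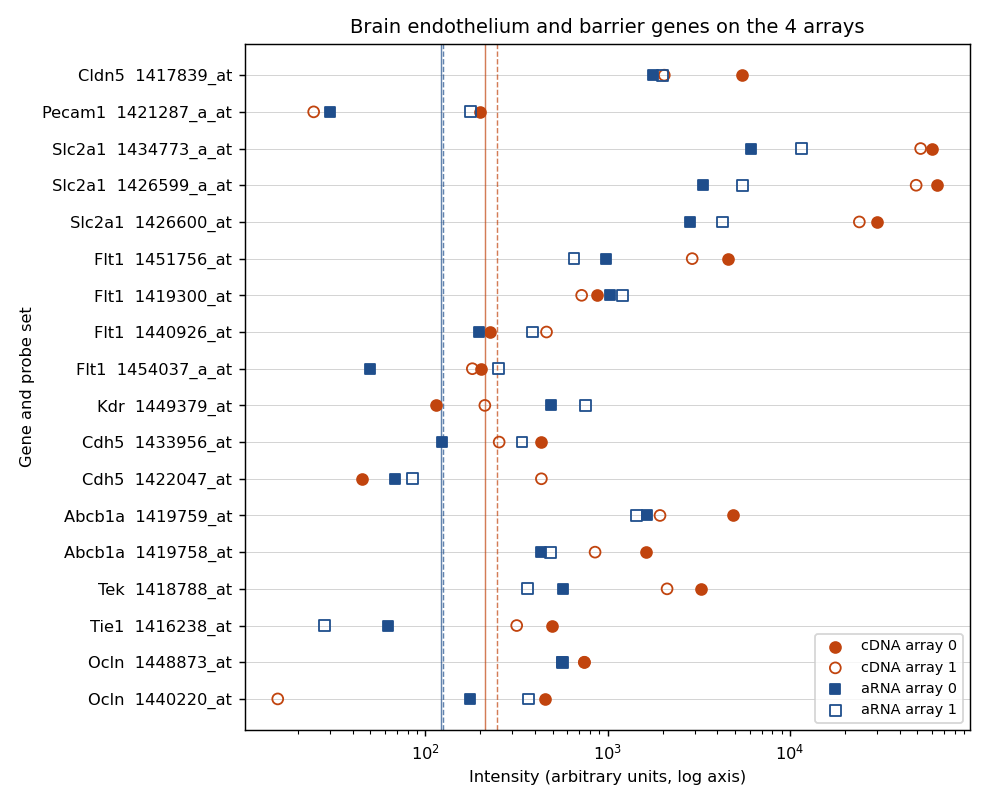
Intensity (log axis, arbitrary units) of the 18 member probe sets on the 4 arrays; circles are cDNA arrays and squares aRNA arrays, filled for number 0 and open for number 1, and vertical lines mark the background of each array (solid for number 0, dashed for number 1, in the colour of the preparation). The circles of the 3 Slc2a1 probe sets, Tek and Tie1 lie well to the right of their squares, and the squares of Tie1 and the circles of Kdr lie left of their background lines.

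Slc2a1 encodes Glut1, the carrier that moves glucose across the barrier; it is also made by astrocytes and choroid plexus. At probe set 1426599_a_at its intensity was 64433 (cDNA 0) and 49225 (cDNA 1), against 3322 (aRNA 0) and 5503 (aRNA 1). Both cDNA arrays lay far above both aRNA arrays, a 13.1-fold difference (3.71, SE 0.29, limma adjusted p = 4.85e-05). At 1434773_a_at the values, in the same order of arrays, were 60250 and 52093 against 6100 and 11561, a difference of 2.74 (SE 0.30, limma adjusted p = 0.000205). At 1426600_at they were 30121 and 24022 against 2827 and 4274, a difference of 2.95 (SE 0.28, limma adjusted p = 0.000109). The 3 probe sets of Slc2a1 thus rose together, within 0.98 of each other. Among the 1212 genes with exactly 3 tested probe sets, 32 (2.64%) had all 3 called higher on cDNA, and the median spread within such a gene was 1.99.

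Abcb1a encodes P-glycoprotein, the ATP-driven efflux pump of the capillary wall. At its brighter probe set 1419759_at the intensity was 4880 (cDNA 0), 1937 (cDNA 1), 1639 (aRNA 0) and 1447 (aRNA 1). The cDNA array 0 was high and the cDNA array 1 was close to the aRNA arrays, so the difference of 0.99 (SE 0.45) did not pass (limma adjusted p = 0.104). At 1419758_at the values were 1628 and 853 against 429 and 486, and the difference of 1.34 (SE 0.47) passed narrowly (limma adjusted p = 0.0467). This call was lost without aRNA array 0 (0.161), aRNA array 1 (0.108) or cDNA array 0 (0.193), with median centring (0.0699), with quantile normalization (0.054) and without the filter (0.0902), and adjusted p ranged from 0.0144 to 0.193 over all alternatives. At the brighter probe set the difference was 1.65 without cDNA array 1 and 0.33 without cDNA array 0, each setting leaving 1 cDNA array.

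Among the VEGF receptors, Flt1 (VEGFR1, a high-affinity receptor that also exists as a soluble decoy) was called at 1 of its 2 tested probe sets. At 1451756_at the intensity was 4587 (cDNA 0), 2909 (cDNA 1), 982 (aRNA 0) and 654 (aRNA 1), with no overlap (2.17, SE 0.39, limma adjusted p = 0.00248). At 1419300_at it was 869 and 720 against 1025 and 1202, with both aRNA arrays above both cDNA arrays, and this difference of −0.48 (SE 0.40) did not pass (limma adjusted p = 0.358). The 2 tested probe sets of Flt1 were 2.65 apart, where the median over the 3105 genes with 2 tested probe sets was 1.13 and 14.7% of them were as far apart or farther. The other Flt1 probe sets were dim and outside the test. At 1440926_at the values were 226 and 462 on cDNA and 198 and 389 on aRNA, overlapping, and higher on the array numbered 1 in both preparations. At 1454037_a_at 3 of the 4 arrays lay under background.

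Kdr (VEGFR2, the main signalling receptor for VEGF in endothelium) has 1 probe set, 1449379_at, which was dim and outside the test. Its intensity was 115 (cDNA 0) and 212 (cDNA 1), both under background, and 491 (aRNA 0) and 752 (aRNA 1). Kdr was thus higher on both aRNA arrays, by at least 2.55-fold against the cDNA background. The measured log2 means were 7.43 ± 0.56 for cDNA and 9.29 ± 0.42 for aRNA (SD, n = 2 each). It was not called when the filter was dropped (−1.85, limma adjusted p = 0.0831), a setting in which 21.2% of all 45037 probe sets were called in either direction. The Kdr difference was −2.25 without cDNA array 1 and −1.46 without cDNA array 0, each setting leaving 1 cDNA array.

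The Tie receptors had the same direction as Slc2a1. Tek (Tie2, the receptor for the angiopoietins) read 3233 (cDNA 0), 2118 (cDNA 1), 569 (aRNA 0) and 362 (aRNA 1) at 1418788_at. The cDNA arrays did not overlap the aRNA arrays, and Tek was 5.60-fold higher on cDNA (2.49, SE 0.43, limma adjusted p = 0.00192). Tie1, the orphan partner of Tek, read 494 and 317 on cDNA at 1416238_at, and 62.0 and 28.1 on aRNA, under background. With log2 means of 8.69 ± 0.44 for cDNA and 5.87 ± 0.58 for aRNA (SD, n = 2 each), Tie1 exceeded the aRNA background by at least 2.94-fold on cDNA. The cDNA arrays have a higher background of their own (212 and 247), so this bound is of intensity and not of transcript amount. Tie1 was too dim for the main test and was called when the filter was dropped (limma adjusted p = 0.0385).

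**Figure D2:**
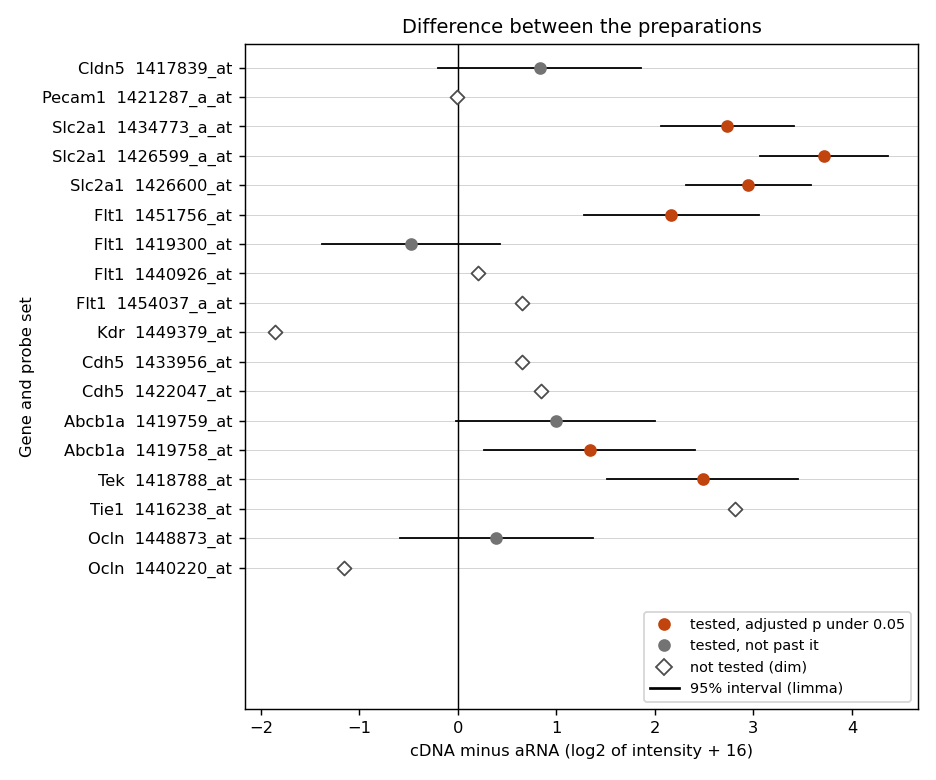
Difference between the preparations (cDNA minus aRNA, log2 of intensity + 16) for the 18 member probe sets; filled circles are tested probe sets with their 95% limma interval, red where the adjusted p was under 0.05, and open diamonds are dim probe sets outside the test. The 3 Slc2a1 probe sets, Tek and Flt1 1451756_at have intervals clear of 0, while the intervals of Cldn5, Ocln and the other tested Flt1 probe set span it.

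No junction gene among the members passed the test. Cldn5, the claudin that seals brain capillaries, read 5464 (cDNA 0), 2045 (cDNA 1), 1768 (aRNA 0) and 1990 (aRNA 1) at 1417839_at. Only the cDNA array 0 stood well above the other 3 arrays, and the difference of 0.83 (SE 0.45, 95% interval −0.20 to 1.86) did not pass (limma adjusted p = 0.172). The Cldn5 difference was 1.53 without cDNA array 1 and 0.12 without cDNA array 0. Each setting leaves 1 cDNA array, so only sizes are given. Ocln, which encodes the tight junction protein occludin, read 744 and 745 on cDNA and 563 and 565 on aRNA at 1448873_at. The arrays of each preparation were nearly equal, and the difference of 0.39 (SE 0.43, the spread being pooled over probe sets of like level) did not pass (limma adjusted p = 0.493; 95% interval −0.59 to 1.37). The second Ocln probe set, 1440220_at, was dim and scattered, with 455 and 15.5 on cDNA and 175 and 368 on aRNA.

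Adhesion genes of the endothelial cell surface were near background. Cdh5 (VE-cadherin, the adherens junction cadherin of endothelium) read 429 and 254 on cDNA and 123 and 339 on aRNA at 1433956_at, and at 1422047_at only cDNA array 1 (433) was above background. Pecam1, the platelet and endothelial adhesion molecule CD31, read 199 and 24.4 on cDNA and 30.1 and 176 on aRNA at its only probe set, 1421287_a_at, where 1 array was above background. The preparations overlapped at all 3 of these probe sets, so the arrays give no usable level for Pecam1 and only a rough one for Cdh5.

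Markers of other cells of the vessel wall and its surroundings moved with the preparation as well, and their part in the member differences was not tested. Of the smooth muscle markers, 5 of 5 tested were called higher on cDNA, where 21.9% of all genes were called higher and 22.9% lower at 1 probe set per gene. Their intensities summed to 110141 (cDNA 0), 37175 (cDNA 1), 4661 (aRNA 0) and 10437 (aRNA 1). The filter uses the mean over the 4 arrays, so a marker can enter the test through its cDNA values, which bears on its call. Tagln did so (log2 5.88 and 5.10 on aRNA, under background). Among choroid plexus markers, so did Kcne2 (6.34 and 6.14, under background) and Kcnj13 (9.51 and 6.29, the latter under background). Among meningeal fibroblast markers, so did Col1a1 (8.30 and 7.77) and Foxc1 (7.87 and 7.86), with aRNA values under the filter of 8.38. Of 8 tested pericyte markers, 3 were higher and none lower (summed intensity 39868 and 27465 against 17753 and 14325). Of 7 meningeal fibroblast markers, 5 were higher and 1, Dcn, lower (median difference 3.05). Their summed intensity was 58979 and 32961 against 43145 and 23321. Dcn alone (log2 15.28 and 14.26 on aRNA) made most of the aRNA sums. Of 4 tested choroid plexus markers, 3 were higher, and Clic6 (0.25) did not pass. The summed intensity was 104751 and 178320 against 2114 and 1670. Ttr alone (log2 16.63 and 17.32 on cDNA) made most of the cDNA sums. For astrocytes, which also make Slc2a1, 2 of 7 were higher and 1 lower (101767 and 128682 against 63155 and 116563). Of 7 microglial markers none was higher and 1 lower, but the aRNA arrays were far apart (median 1.96 for number 1 minus number 0). Red cell and platelet markers were mostly dim, with Alas2 and Ppbp under background on all 4 arrays and 2 of 7 tested, 1 of them lower on cDNA.

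The wider endothelial program was read from 6 lists of 138 genes, of which 130 had a singly named probe set and 106 were tested at the brightest 1 per gene. Of these, 36 (34.0%) were called higher on cDNA and 10 (9.43%) lower, where 21.9% and 22.9% of the 11945 genes tested were. The median difference was 0.50, against −0.06 over those 11945 genes. The lists were chosen with earlier results of these data known. A gene can enter the test through 1 preparation here too, which bears on its call and on these counts. The counts moved when a single array was left out, which leaves 1 array in that preparation. Fewer genes of the lists were called higher without aRNA array 0, aRNA array 1 or cDNA array 0, and more without cDNA array 1. More were called lower without cDNA array 0, and fewer without any other array. Calls over all probe sets were fewer in each of these settings. Surface and secreted proteins of endothelium had 16 of 31 tested higher and 4 lower (median 1.06). Vwf, the von Willebrand factor of endothelial storage granules, was under background on aRNA array 0. Its cDNA mean was higher by at least 15.97-fold (limma adjusted p = 0.00536). The arrays of each preparation were far apart for Vwf (log2 12.97 and 10.75 on cDNA, 5.32 and 8.61 on aRNA). Vwf entered the test through its cDNA values, which bears on its call. Thbd, the anticoagulant receptor thrombomodulin, differed by 4.45 (SE 0.47, limma adjusted p = 0.00018). Procr, the protein C receptor, went the other way (log2 7.74 and 9.71 on cDNA, 10.74 and 12.37 on aRNA). Its cDNA mean was at least 6.90-fold lower (limma adjusted p = 0.0119), with cDNA array 0 under background. Itm2a differed by −1.50. Sparcl1 (−0.32) and Vcam1 (−0.18), a leukocyte adhesion molecule, did not pass.

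Transcription factors of endothelium had 5 of 15 tested higher and 1 lower (median 0.65), where 21.9% of all genes were higher and 22.9% lower. Foxq1, a forkhead factor of brain capillaries, was under background on aRNA array 0, and its cDNA mean was higher by at least 12.2-fold. It entered the test through its cDNA values (log2 6.94 and 7.81 on aRNA). The ETS factor Ets2 differed by 2.97. Foxl2, better known as an ovarian factor, was at least 3.12-fold lower, under background on cDNA array 0. It entered the test through its aRNA values (log2 7.80 and 8.09 on cDNA). Epas1 (HIF-2α, −0.26) and the Notch target Hey1 (0.49) did not pass. Of 13 tested genes of Wnt signalling to brain endothelium, 5 were higher and 1 lower (median 0.79). With median centring 3 were higher. Lef1, a nuclear effector of β-catenin (2.41), and Reck, a cell-surface partner of Wnt7 signalling (2.21), rose. The ligand Wnt7b was at least 3.30-fold lower on cDNA, under background on cDNA array 0. Wnt7b entered the test through its aRNA values (log2 7.76 and 8.35 on cDNA). Tspan12 (−0.36) and Sox17 (1.20) did not pass.

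Among 22 tested barrier transporters other than Slc2a1 and Abcb1a, 6 were higher and 1 lower (median 0.19). Over all genes tested, 21.9% were higher and 22.9% lower, so the share of transporters called higher was near that of all genes. The organic anion transporter Slc22a8 differed by 2.73 and the thyroxine carrier Slco1c1 by 1.97, while the monocarboxylate carrier Slc16a1 was lower (−1.04). The transferrin receptor Tfrc (0.51) and the amino acid carrier chain Slc3a2 (−0.27) did not pass. Of 16 tested junction and scaffold genes, 3 were higher and 3 lower (median −0.03), both near the shares over all genes. Among those higher were the scaffold genes Afdn (2.42) and Jup (2.01). Among those lower were Pard3 (−3.04) and the junction adhesion molecule Jam3 (−1.51). Ctnnb1 (0.33) and Ctnna1 (−0.33), which link cadherins to actin, did not pass. VEGF and angiopoietin ligands and their other receptors had 1 of 9 tested higher, the vascular phosphatase Ptprb (1.62), and none lower (median −0.03). Ptprb was not called with median centring, and its cDNA arrays were far apart (log2 12.83 and 10.87). The co-receptors Nrp1 (0.05) and Nrp2 (−0.53) did not pass.

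**Figure D3:**
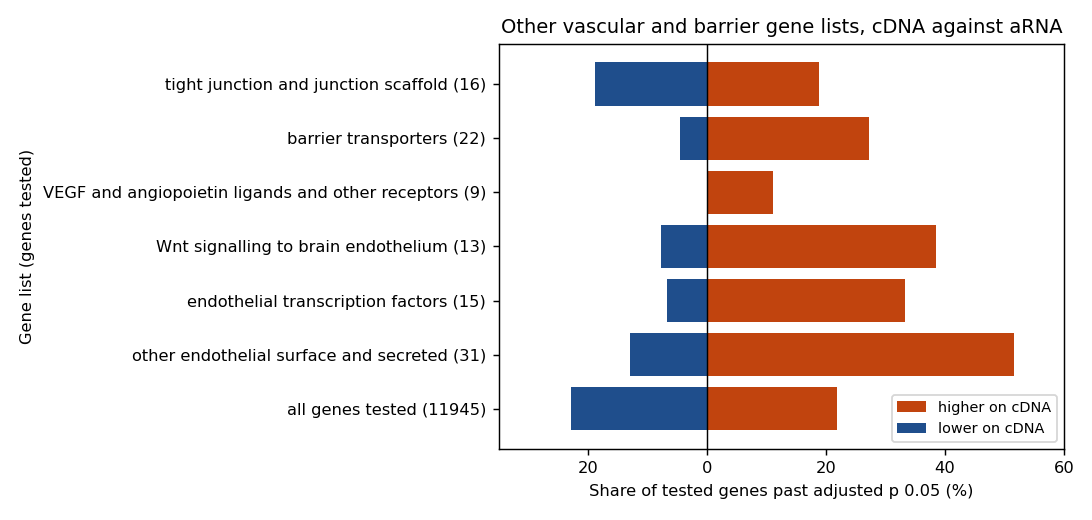
Share of tested genes called higher (red, to the right) or lower (blue, to the left) on cDNA than on aRNA at a limma adjusted p under 0.05, for 6 gene lists and for all 11945 genes tested; the number of genes tested is in brackets. Surface and secreted genes have the longest red bar (16 of 31), and the junction list has bars of equal length (3 and 3 of 16).

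The arrays numbered 1 were then set against those numbered 0, a contrast whose meaning the labels do not give. Limma called none of the 10 tested members (0.0622% of all probe sets tested were called), none had an unadjusted p under 0.05, and their adjusted p lay between 0.871 and 1.0. Between the cDNA arrays, 9 of the 10 were lower on number 1 (51.3% of all tested probe sets were), and 2 were lower by 2-fold or more (7.48%): Cldn5 (−1.41) and Abcb1a at 1419759_at (−1.33). Between the aRNA arrays, 7 of the 10 were higher on number 1 (49.6% of all), with 0 past 2-fold in either direction (4.66% higher and 3.93% lower). These counts hold Slc2a1 at 3 probe sets. At the brightest probe set per gene, 5 of 6 members were lower on cDNA array 1 (median −0.63) and 3 of 6 on aRNA array 1 (median −0.09). With 1 array on each side, these differences have no replicate check, and over all tested probe sets the median absolute difference was 0.37 for the cDNA pair and 0.33 for the aRNA pair.

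The sizes below are therefore descriptions of these arrays. Tek was lower on number 1 by nearly the same amount in both preparations, −0.61 on cDNA and −0.63 on aRNA, and so was Flt1 at 1451756_at (−0.65 and −0.58). Tie1 gave −0.62 and −0.82, but its aRNA values were under background. A reduction of 0.5 or more in both preparations was found at 4.05% of tested probe sets. Cldn5 (−1.41 on cDNA and 0.17 on aRNA) and Abcb1a at 1419758_at (−0.92 and 0.17) were lower on number 1 in the cDNA pair only, while Abcb1a at 1419759_at was lower in both pairs (−1.33 and −0.18). The 3 Slc2a1 probe sets were lower by −0.39 to −0.21 on cDNA array 1 and higher by 0.59 to 0.92 on aRNA array 1. Kdr was higher on number 1 in both (0.80 and 0.60), its cDNA values being under background, and Ocln at 1448873_at gave 0.0026 and 0.0048.

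**Figure D4:**
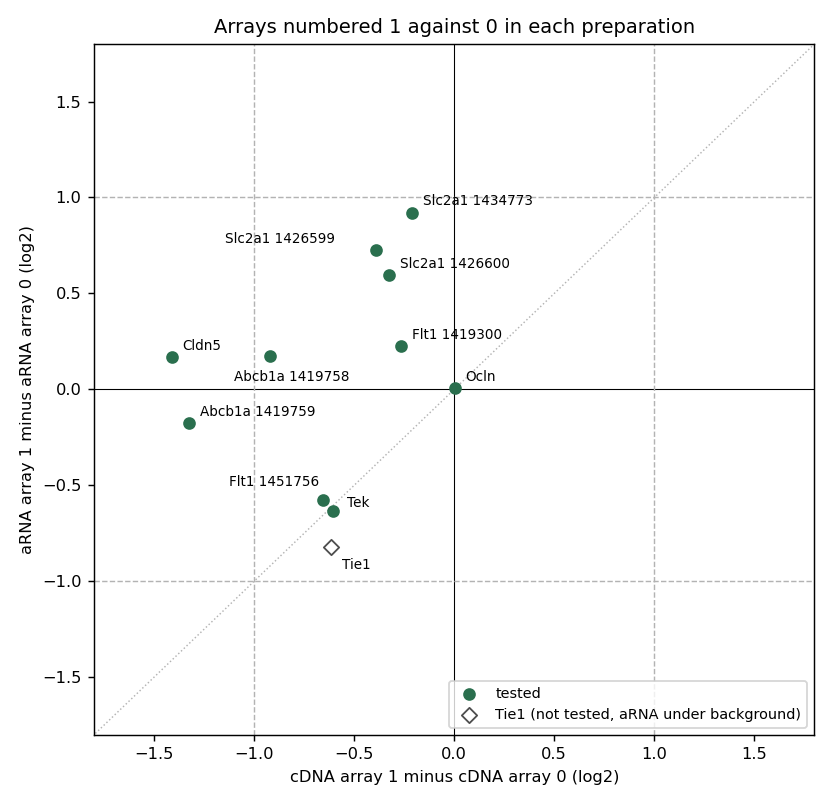
Number 1 minus number 0 (log2) for the cDNA pair (horizontal) and the aRNA pair (vertical) for the 10 tested member probe sets and Tie1; dashed lines mark a 2-fold difference and the dotted line equal differences. Tek and Flt1 1451756 lie on the dotted line below 0, Cldn5 and Abcb1a 1419759 lie left of the 2-fold line, and the Slc2a1 probe sets lie above 0 on the vertical axis.

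Other endothelial genes were described in the same contrast. Of the 31 tested surface and secreted genes, 22 were lower on cDNA array 1 than on cDNA array 0 (median −0.55) and 10 were lower on aRNA array 1 (median 0.28). The other lists had smaller cDNA medians: −0.36 for VEGF and angiopoietin genes (7 of 9 lower), −0.28 for Wnt genes (7 of 13), −0.23 for junction genes (10 of 16), −0.12 for transcription factors (9 of 15) and −0.10 for transporters (12 of 22), where 51.3% of all tested probe sets were lower. Their aRNA medians lay between −0.02 and 0.44. None of the 106 tested genes of the 6 lists was called between the numbers (0.0837% of all genes tested were). Smooth muscle markers had medians of −1.49 on cDNA and 0.65 on aRNA over 5 tested genes, meningeal fibroblast markers −0.91 and −0.29 over 7, and choroid plexus markers 1.85 and −0.30 over 4. Microglial markers had medians of 1.36 and 1.96 over 7 tested genes, with 6 of 7 higher on number 1 in each pair; Cx3cr1 was lower on cDNA (−0.68) and P2ry12 on aRNA (−0.21). The microglial adaptor Tyrobp was the only gene of all the marker lists called in this contrast (2.74, limma adjusted p = 0.022). The part of these cells in the member differences was not tested.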

How the data were processed

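Each array has 1 deposited value per probe set, an intensity (linear, no detection call). How the authors summarised probes to probe sets is not stated. Every array's 2% trimmed mean was 2500.02, so the values had been scaled to a common mean, which hides a difference in total signal, and were used as they stand. The number of arrays, 2 per preparation, limits precision.

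Values were taken as log2(intensity + 16), which understates changes at low signal. After leaving out 64 control probe sets, the 22519 of 45037 with a mean at or above the median (8.38) were tested with limma 3.58.1 in R 4.3.3 (lmFit, eBayes with intensity trend, Benjamini-Hochberg adjustment over all probe sets tested, threshold 0.05). The preparations were compared with 2 residual degrees of freedom, and the numbers with preparation as a covariate and 1 residual degree of freedom. The fit was tested on simulated data. Where an array of the lower side lay under background, a fold is given as a lower bound. It sets the mean of the higher side against the higher, per array, of the background and the probe set's own value. The bound holds for the means of the preparations and not for each pair of arrays. Background was higher on the cDNA arrays, so a bound with cDNA higher is of intensity and not of transcript amount.

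Platform symbols were updated through a RefSeq table (GRCm38.p6; 34741 of 34945 singly named probe sets matched). All member probe sets are named. For each other list, up to 2 called genes per direction with the largest difference and the 2 brightest not called are named. Members and lists were chosen with earlier results of these data known. Alternatives were pseudocounts 1 and 64, no filter or the 75th percentile, median centring, quantile normalization, no intensity trend, no probe sets named _x_at or _s_at, the number as a block and each array left out. Figures used matplotlib 3.10.9 in Python 3.11.15.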

Additional observations from a re-analysis of the deposited data

Results flagged for a closer look

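The largest difference of Slc2a1 between the preparations, at 1426599_a_at, came with opposite signs between the numbered arrays: −0.39 for the cDNA pair and 0.73 for the aRNA pair (number 1 minus number 0), both larger than the median absolute difference of the respective pair over all tested probe sets. The difference between the preparations in this contrast was not tested, since each value rests on 1 array per side.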

How the results depend on the processing

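With the filter at the 75th percentile, 6454 probe sets in place of 9722 and 3 member probe sets in place of 6 were called between the preparations, fewer being tested. Leaving out 1 array gave fewer calls in all and moved the member calls in both directions. Each such setting leaves 1 array in a preparation, so its counts are not given. Between the numbers, 14 probe sets were called, 8 with median centring, 28 without the filter, 0 without intensity trend (1101 at an unadjusted p under 0.05), 9 with pseudocount 64, 55 with quantile normalization and 7 without _x_at and _s_at probe sets. The cause of these changes was not tested. No member was called between the numbers in any setting that allows a test. Ocln 1448873_at turned from near 0 to −0.031 under median centring in that contrast. The replicate block gave 10245 calls and 6 for the members and changed no member call; the numbers share a label only (correlation 0.041 of the differences over 22519 probe sets, with 2 pairs). No member probe set is named _x_at or _s_at. Leaving out an array leaves no residual degrees of freedom for the numbers, so that test was not run. Limits: dim probe sets of Pecam1, Cdh5, Kdr, Tie1 and some of Flt1 and Ocln lie near background, so their sizes are bounds or not firm.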
